A study of Mus musculus with 16 samples.

Results

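Histone H3 trimethylated on lysine 27 (H3K27me3) was followed from dividing to quiescent hair follicle stem cells (HFSCs) by comparing the peaks called in EA-HFSCs, the bulge cells of early anagen at PD22-25, with those called in LC-HFSCs, the bulge cells of late catagen at PD38-44. The 2 lists held 25534 and 1909 peaks, which is 27443 of the 219698 peaks in all 12 lists of the series. Every EA-HFSC and LC-HFSC H3K27me3 peak was a member, and each gene was followed by the peaks of either list found no more than 3000 bp from where its annotation begins. Both populations came from wild-type male CD1 x FVB mice, 15 to 20 per sample, with no transgene or treatment in any group, and were sorted as CD34+/α6-integrin+ cells. The study's methods state that mice of either sex served in most of its work and name no sex for the ChIP-seq mice. The CD34-/α6-integrin+ cells of the same ages, called non-EA-HFSCs and non-LC-HFSCs and made up mostly of epidermis and lower outer root sheath, served as the comparison. Reads of independent pools of mice were merged before peaks were called, so that there was 1 list per population and mark. No difference between lists had a replicate check and no test was made, and shares are given with 95% Wilson intervals, which cover counting error only. Age and hair cycle stage cannot be told apart in these groups, and in pooled cells fewer cells with the mark and less of the mark per cell cannot be told apart either.

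H3K27me3 is laid down by the Polycomb repressive complex 2 through its enzymes Ezh1 and Ezh2, and it is read by Polycomb repressive complex 1. It tends to form broad domains over CpG-rich starts of developmental regulators that a tissue does not use, such as homeobox genes in skin. In the hair follicle, loss of the Ezh enzymes is known to release the Cdkn2a locus, which codes for cell cycle inhibitors. A gene that carries both H3K27me3 and H3K4me3, the mark of active and poised starts, is called bivalent.

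Markers of the bulge and of other skin cells were read in the same lists. Of 37 bulge stem cell regulators and markers, 33 had an H3K4me3 peak at the start in EA-HFSCs. The number was 33 at late catagen as well. Only 2 of the 37, Prom1 and Bmp6, had an H3K27me3 peak in EA-HFSCs, against 15 in non-EA-HFSCs and 2918 of all 22367 genes in EA-HFSCs. Among the genes with no H3K27me3 peak in HFSCs, 60.4% had H3K4me3 in EA-HFSCs and 57.0% in LC-HFSCs. None of 12 leukocyte markers had an H3K4me3 peak at either stage. Of 10 melanocyte markers 4 had one at early anagen and 3 at late catagen, of 12 fibroblast markers 8 and 5, and of 8 endothelial markers 2 and 2, so that the fibroblast markers stood near the general level in EA-HFSCs. The part of such cells in the lists was not tested. The peak lists carry no read totals, so the depth behind them is not given here. The LC-HFSC lists were the shorter ones for every mark, with 14718 against 21482 peaks for H3K4me3 and 1414 against 42277 for H3K9me3. The study's methods state that peak detection for H3K27me3 was not saturated and that LC-HFSCs had more reads than EA-HFSCs. How far depth or background set the lengths of the lists was not tested.

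Sequences of 7 gene starts show what kind of DNA was followed. Each is the 200 bases directly before the annotated start, from the mm9 genome, written 5′ to 3′ on the strand of the gene with CpG dinucleotides in capitals. Rfx4, Robo3 and Tbr1 kept H3K27me3 under the LC-HFSC peaks of highest score. Evx1, Foxd4 and Gm5607 lost it although their EA-HFSC peaks had a score of 3100.0, and Wnt1 gained it. That score is shared exactly by 40 EA-HFSC peaks and passed by 7, so it may be a limit of the peak caller and is not read as a measured strength.
Rfx4: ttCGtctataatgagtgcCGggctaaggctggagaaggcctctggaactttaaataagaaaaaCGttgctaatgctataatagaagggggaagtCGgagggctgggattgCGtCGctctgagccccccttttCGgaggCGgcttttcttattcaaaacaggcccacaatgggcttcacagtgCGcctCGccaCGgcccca
Robo3: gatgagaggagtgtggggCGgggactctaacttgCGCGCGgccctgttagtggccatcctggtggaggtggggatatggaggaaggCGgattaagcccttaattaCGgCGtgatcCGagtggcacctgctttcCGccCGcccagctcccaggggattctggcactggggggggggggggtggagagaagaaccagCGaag
Tbr1: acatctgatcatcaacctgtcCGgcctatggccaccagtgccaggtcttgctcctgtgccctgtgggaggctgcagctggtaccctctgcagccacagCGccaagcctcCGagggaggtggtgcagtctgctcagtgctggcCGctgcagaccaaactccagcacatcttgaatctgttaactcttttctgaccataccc
Evx1: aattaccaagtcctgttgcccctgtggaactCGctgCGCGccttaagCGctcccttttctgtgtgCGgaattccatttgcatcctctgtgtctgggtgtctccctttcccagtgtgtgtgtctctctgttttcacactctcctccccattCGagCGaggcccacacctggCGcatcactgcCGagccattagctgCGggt
Foxd4: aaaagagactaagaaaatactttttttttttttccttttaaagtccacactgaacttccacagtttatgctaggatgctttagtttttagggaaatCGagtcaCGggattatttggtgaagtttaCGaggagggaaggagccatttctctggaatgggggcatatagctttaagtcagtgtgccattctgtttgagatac
Gm5607: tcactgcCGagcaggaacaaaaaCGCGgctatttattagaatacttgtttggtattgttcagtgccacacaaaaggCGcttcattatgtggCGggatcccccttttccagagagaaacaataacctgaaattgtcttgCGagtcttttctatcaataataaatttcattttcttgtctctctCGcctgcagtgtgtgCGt
Wnt1: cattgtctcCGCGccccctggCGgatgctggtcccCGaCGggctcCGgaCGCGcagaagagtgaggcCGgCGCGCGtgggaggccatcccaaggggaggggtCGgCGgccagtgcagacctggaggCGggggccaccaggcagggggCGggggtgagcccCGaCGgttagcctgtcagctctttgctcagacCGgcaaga
These windows lie at chr10:84218607-84218806 on the plus strand for Rfx4, chr9:37240761-37240960 on the minus strand for Robo3, chr2:61640787-61640986 on the plus strand for Tbr1, chr6:52263292-52263491 on the plus strand for Evx1, chr19:24975800-24975999 on the minus strand for Foxd4, chr8:12385571-12385770 on the plus strand for Gm5607 and chr15:98620088-98620287 on the plus strand for Wnt1. The Evx1 window overlaps an exon of the noncoding gene 5730457N03Rik on the opposite strand, and the other 6 are intergenic in the annotation. The windows hold 11 CpG for Rfx4, 11 for Robo3, 4 for Tbr1, 10 for Evx1, 3 for Foxd4, 8 for Gm5607 and 19 for Wnt1. Over all genes of a kind, the median was 11 CpG per window at the 745 genes that kept a peak and 8.00 at the 2173 that lost it, against 7.00 at all 22367 protein-coding genes. The interquartile ranges, 6.00 to 18 and 4.00 to 15.0, overlapped widely, as the printed windows show: Tbr1 kept its peak with 4 CpG and Evx1 lost it with 10.

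Most of the H3K27me3 territory of EA-HFSCs had no peak in LC-HFSCs, and wide domains were met by LC-HFSC peaks more often than narrow ones. The EA-HFSC peaks covered 58.2 Mb with a median width of 1381 bp, and the LC-HFSC peaks covered 7.41 Mb with a median width of 2979 bp. Of the 25534 EA-HFSC peaks, 1699 (6.65%, 6.35 to 6.97) shared at least 1 bp with an LC-HFSC peak, and 11.9% of the EA-HFSC length was covered. Of the 6.92 Mb covered, 3.32 Mb lay in domains of 10 kb and over, and 1.42 Mb in those of 20 kb and over. At least 50% of the peak was covered for 1049 peaks (4.11%, 3.87 to 4.36).

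The share that stayed grew with width up to 20 kb. Among EA-HFSC peaks under 1 kb, 39 of 6323 were overlapped (0.617%, 0.452 to 0.842), and among those of 1 to 2 kb, 168 of 11452 (1.47%, 1.26 to 1.70). The share was 9.62% (8.88 to 10.4) for 2 to 5 kb, 37.9% (35.5 to 40.4) for 5 to 10 kb and 68.1% (63.2 to 72.5) for 10 to 20 kb. In these classes no interval overlapped that of the next. For the 160 peaks of 20 kb and over the share was 74.4% (67.1 to 80.5), whose interval overlapped that of the 10 to 20 kb class.

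Measured by length, the widest class did not stand highest. The covered share of length was 0.492% under 1 kb, 1.06% for 1 to 2 kb, 6.96% for 2 to 5 kb, 22.1% for 5 to 10 kb, 37.2% for 10 to 20 kb and 29.4% for 20 kb and over. Where a domain was overlapped at all, LC-HFSC peaks covered a median of 52.6% of it in the 10 to 20 kb class and 32.4% in the widest class. The non-HFSCs differed here: from non-EA-HFSCs to non-LC-HFSCs the covered share of length was 53.7% for 5 to 10 kb, 71.1% for 10 to 20 kb and 86.9% for 20 kb and over, and all 222 of the widest domains were overlapped. Over all widths, 45.5% (44.8 to 46.3) of the non-EA-HFSC peaks were overlapped.

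**Figure D1:**
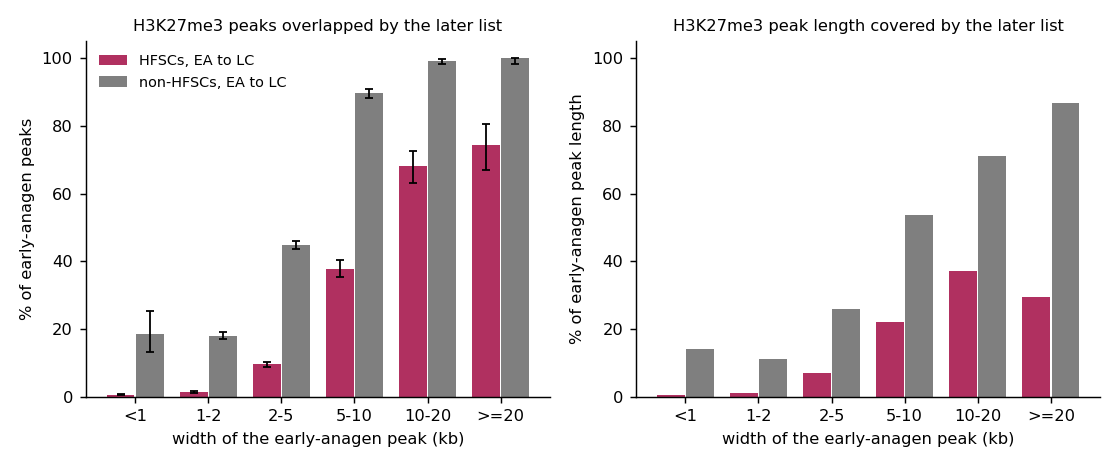
Left, percent of early-anagen H3K27me3 peaks overlapped by the late-catagen list of the same population, by width of the early-anagen peak in kb, with 95% Wilson intervals as error bars. Right, percent of early-anagen peak length covered. In HFSCs the covered length is highest at 10 to 20 kb (37.2%) and 29.4% at 20 kb and over, while in non-HFSCs it reaches 86.9% in the widest class.

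Width and peak score moved together, the score being the p-value that MACS gave to the peak, as -log10 multiplied by 10. The median score was 47.4 under 1 kb and 1257 at 20 kb and over. Within 1 band of scores, 200 to 500, the overlapped share was 14.7% (13.2 to 16.4) for 2 to 5 kb, 21.6% (18 to 25.6) for 5 to 10 kb, 51.2% (36.5 to 65.7) for 10 to 20 kb and 76.2% (54.9 to 89.4) for the 21 peaks of 20 kb and over. In the band of 500 to 1000 it was 38.8% (33.5 to 44.3) for 2 to 5 kb and 37.5% (33.6 to 41.7) for 5 to 10 kb, and then 65.9% (55.1 to 75.2) and 72.4% (54.3 to 85.3) in the classes above. At scores of 1000 and over, the share was 51.9% (34.0 to 69.3) for 2 to 5 kb and 67.3% (62.2 to 72.1), 75.8% (69.8 to 80.8) and 74.5% (65.0 to 82.1) in the 3 widest classes. Within a band of middle scores, domains of 10 kb and over were thus overlapped more often than those of 5 to 10 kb. Between 500 and 1000, the classes of 2 to 5 kb and 5 to 10 kb did not differ beyond their intervals. A wider peak meets an overlap of 1 bp more easily, and by length the differences were smaller above a score of 500. From 2 to 5 kb upward, the covered share of length was 25.1%, 20.3%, 27.9% and 30.7% between 500 and 1000. It was 35.6%, 42.8%, 45.0% and 30.9% at 1000 and over, and 9.12%, 9.31%, 24.5% and 23.4% between 200 and 500.

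The lengths of the lists weighed on these shares. When the 1909 top-scoring peaks of each list were taken, 50.1% of the EA-HFSC peaks were overlapped and 31.1% of their length was covered, and with as many top-scoring peaks from each non-HFSC list 66.1% were overlapped. The gap between HFSCs and non-HFSCs was thus narrower between lists of equal length, with HFSCs below in both cases.

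Where a single EA-HFSC peak was paired with a single LC-HFSC peak, the later peak was mostly narrower. Most EA-HFSC peaks met no LC-HFSC peak and are outside this comparison. Whether the domains themselves became narrower, or only their called peaks, was not tested. Among the 1176 cases in which 1 EA-HFSC peak met 1 LC-HFSC peak and neither met another, the EA-HFSC peaks had a median width of 5516 bp and the LC-HFSC peaks one of 2928 bp. The median ratio of the later to the earlier width was 0.606. The LC-HFSC peak lay wholly inside the EA-HFSC peak in 822 pairs, reached past 1 edge in 310 and past both edges in 44, and it was the wider one in 125. The ratio in non-HFSCs was 0.543 over 4996 pairs.

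The middle was the part covered most often in domains of 5 to 20 kb, and wider domains had no such maximum. In the 559 overlapped EA-HFSC domains of 5 to 10 kb, 77.6% were covered at 47.5% of their length, against 23.6% at the first and 24.2% at the last point measured. In the 262 domains of 10 to 20 kb the values were 70.2% near the middle and 20.6% and 21.0% at the ends. In the 119 domains of 20 kb and over, 38.7% were covered near the middle, 19.3% at the first and 26.9% at the last point, and 33.6% to 50.4% at the points between. Overlapped non-HFSC domains of this width were covered near the middle in 94.6% of cases.

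**Figure D2:**
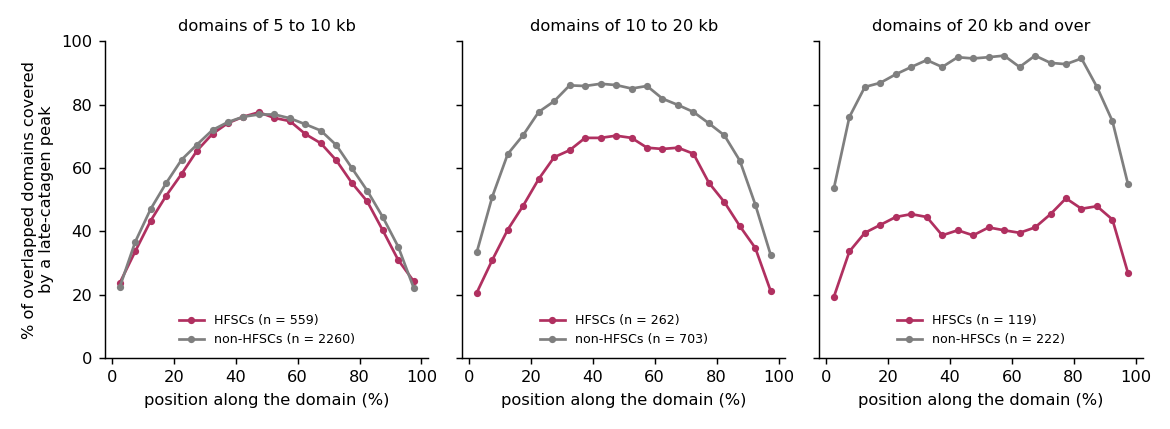
Percent of overlapped early-anagen H3K27me3 domains that were under a late-catagen peak at each of 20 points along the domain, for 3 width classes, with position in percent of the domain from its lower to its higher coordinate. HFSC domains of 5 to 20 kb are covered most in the middle, and those of 20 kb and over have no maximum in the middle and lie far under the non-HFSC line.

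The covered part was richer in CpG than the uncovered part of the same domain, except in the widest class. Among 881 EA-HFSC domains of at least 5 kb with at least 500 bp in each part, the covered part had the higher CpG density in 612 (69.5%, 66.3 to 72.4), with medians of 2.17 and 1.4 CpG per 100 bp. The share was 74.5% (68.8 to 79.5) for 10 to 20 kb and 53.8% (44.8 to 62.5) for 20 kb and over. When only the inner 50% of each domain was compared, a choice made after seeing the data, the share was 59.7% (55.3 to 64.0) over 494 domains. Non-HFSCs gave 70.3% (68.7 to 71.9) over whole domains and 59.4% (57.0 to 61.9) over the inner 50%, so HFSCs and non-HFSCs were close in both. In the Rfx4 domain, chr10:84212594-84228273, the LC-HFSC peak over the start had 3.82 CpG per 100 bp over 9622 bp. The uncovered 1675 bp before it had 1.49. A further LC-HFSC peak of 4115 bp in the domain had 0.875, so not every covered piece was richer than that uncovered stretch. Rfx4 codes for a transcription factor of the developing brain.

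Splitting was common in wide domains, and joining was less frequent. Of the 1699 overlapped EA-HFSC peaks, 231 (13.6%) met at least 2 LC-HFSC peaks: 184 met 2, 35 met 3, 8 met 4 and 4 met 5. Of the 119 overlapped domains of 20 kb and over, 65 were split, of the 262 of 10 to 20 kb 85 were, and of the 759 under 5 kb only 9 were. Splitting was more frequent in non-HFSCs, at 31.6% of the overlapped peaks and at 199 of the 222 overlapped domains of 20 kb and over. The gaps between pieces were mostly short, with a median of 348 bp and 203 of 294 under 1000 bp, and 38 were 3000 bp or longer. In the other direction, 168 of the 1909 LC-HFSC peaks (8.80%) spanned at least 2 EA-HFSC peaks. The gaps joined had a median of 87.0 bp, and 169 of 175 were under 1000 bp. Joining, unlike splitting, was less frequent in non-HFSCs, at 413 of 15273 non-LC-HFSC peaks (2.70%). When peaks of each list less than 1000 bp apart were merged and the count was made anew, there were 148 split domains and 8 joining peaks. Merging also fused neighbouring EA-HFSC peaks, from 25534 to 18738, so the 148 are not all among the 231. By the gaps of the lists as deposited, nearly all joins and most of the splits rested on short gaps.

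Developmental regulators sat under the domains in most pieces. The domain of Nkx2-2, a homeobox gene of ventral neural tube and pancreas, measured 23125 bp at chr2:147004195-147027319 and met 5 LC-HFSC peaks that covered 86.7% of it. That of Tbx3, a T-box gene of limb and mammary gland, at chr5:120095598-120144484, met 5 that covered 57.2%. A domain of 46428 bp at chr17:85849887-85896314 with no protein-coding start inside also met 5, and the domain of Otx1, a forebrain homeobox gene, met 4 that covered 81.9%. Of the 5 LC-HFSC peaks that joined the most EA-HFSC peaks, each joined 3, and 1 held a gene start, that of the neuronal calcium sensor Hpcal4 at chr4:122856055-122863880.

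The widest EA-HFSC domain of all, 66918 bp at chr2:74476284-74543201, covered the 5′ end of the Hoxd cluster, whose genes set positional identity along limb and trunk. LC-HFSC peaks covered 49.7% of it in 4 pieces of 4340, 2138, 12362 and 14441 bp. The largest piece, with a score of 330.3, lay over the starts of Hoxd13, Hoxd12 and Hoxd11, and the next lay over Evx2, the homeobox gene beside the cluster. Hoxd10, Hoxd9 and Gm14396 had no LC-HFSC peak within 3000 bp, and Hoxd8 kept a peak in the window only from the neighbouring domain. The boundary fell between Hoxd11 and Hoxd10. Hoxd9 and Hoxd8 had an EA-HFSC H3K4me3 peak over the start, and Hoxd8 still had one in LC-HFSCs. The non-LC-HFSC list covered the domain in 3 peaks with scores of 752.8 to 1691.8, whereas the non-EA-HFSC list held no peak there. A list can thus lack a domain that the later list of the same population holds, and the part of peak calling in that was not tested.

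**Figure D3:**
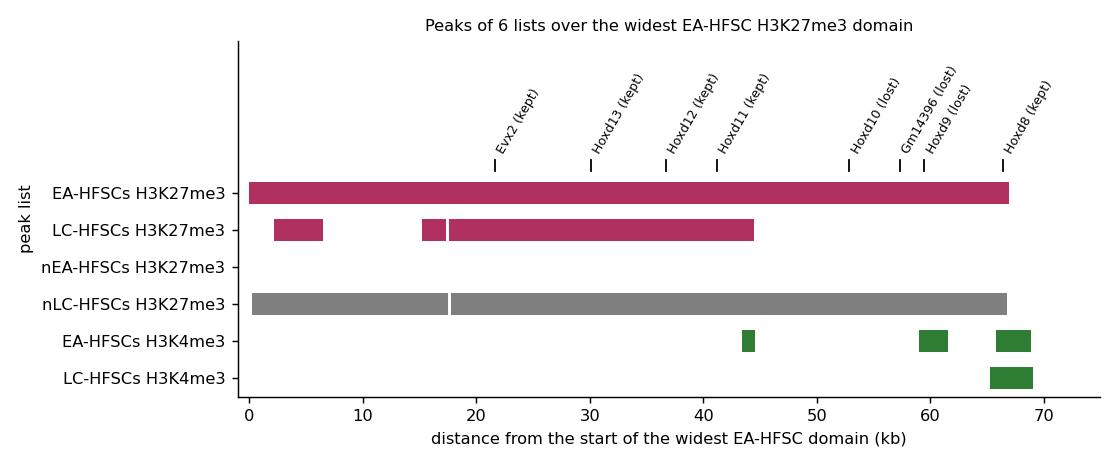
Peaks of 6 lists, as bars, over the widest EA-HFSC H3K27me3 domain, with distance from its start in kb and gene starts as ticks labelled by whether an LC-HFSC H3K27me3 peak lay within 3000 bp. LC-HFSC peaks cover the side of Evx2 to Hoxd11 and stop before Hoxd10, and peaks with very short gaps between them look joined at this scale.

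The other 4 of the 5 widest domains were covered less. The domain of Hoxd3, Hoxd4 and Hoxd1, 65837 bp at chr2:74543317-74609153, was covered over 24.4% of its length in 3 pieces. The Hoxc domain of 55994 bp at chr15:102762331-102818324 was covered over 19.5% by a single peak of 13017 bp at Hoxc12, and Hoxc11, Hoxc10 and Hoxc9 in it had none. The Hoxb13 domain of 55347 bp at chr11:96019557-96074903 and the Gata4 domain of 53539 bp at chr14:63845763-63899301 met no LC-HFSC peak. Gata4, an endoderm and heart factor, had an EA-HFSC score of only 115.8 there. The widest LC-HFSC peaks, by contrast, lay at single homeobox and helix-loop-helix genes: Nkx3-2 (22980 bp), Lhx1 (21627 bp) and Olig2 (21421 bp).

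At the level of genes, 2918 of 22367 protein-coding genes had an EA-HFSC peak within 3000 bp of the start. Of these, 745 (25.5%, 24.0 to 27.1) also had an LC-HFSC peak there and are called kept, and 2173 (74.5%) did not and are called lost. Only 13 of the 19449 genes without an EA-HFSC peak (0.0668%) had an LC-HFSC peak and are called gained. In non-HFSCs, 2468 of 3480 genes (70.9%) kept the mark, 1012 lost it and 195 gained it. When the same number of top-scoring peaks was taken from each HFSC list, 557 of 1050 genes (53.0%) kept it and 201 gained it, so that gains were few in the full lists and not between lists of equal length. With only peaks of a score of 100 and over, 238 of 2057 genes (11.6%) kept it.

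Kept genes lay under wider and higher-scoring domains. Their EA-HFSC peaks, 697 distinct ones, had a median width of 7139 bp (interquartile range 4550 to 11399), against 2684 bp (1454 to 4595) for the 2021 peaks of lost genes. The median scores were 804 and 148. The kept share was 0 of 217 genes for peaks under 1 kb, 2.58% for 1 to 2 kb, 19.2% for 2 to 5 kb, 48.1% (44.1 to 52.0) for 5 to 10 kb and 64.0% (57.5 to 70) for 10 to 20 kb. It was 49.4% (42.0 to 56.9) for 20 kb and over, under the class before it with no overlap of the intervals. In non-HFSCs the same 2 classes stood at 96.2% each.

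The start itself was often under the peak at kept genes. It lay under an EA-HFSC peak at 662 of the 745 (88.9%), and at 439 of these (66.3%) it also lay under an LC-HFSC peak. At lost genes it lay under an EA-HFSC peak at 1210 of 2173 (55.7%). Few losses were a matter of the window: 86 lost genes (3.96%) had an EA-HFSC peak that an LC-HFSC peak met farther away. At 6 kept genes, the LC-HFSC peak in the window was not over any EA-HFSC peak there. Around kept genes the LC-HFSC peaks were most frequent just inside the gene, with 71.5% of genes covered at 1000 bp downstream. At 4000 bp the share was 34.1% downstream and 24.4% upstream.

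**Figure D4:**
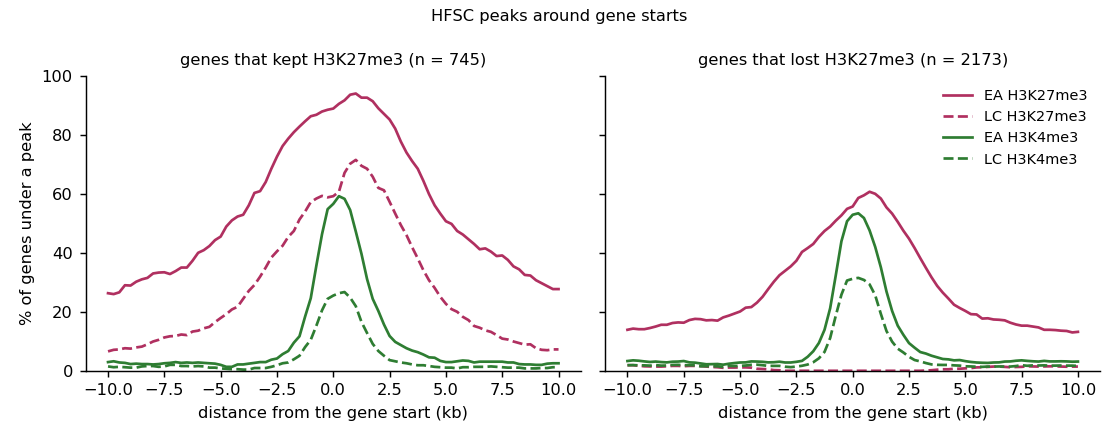
Percent of genes under a peak at each distance from the gene start in kb, positive values lying inside the gene, for the 745 genes that kept and the 2173 that lost H3K27me3 from EA-HFSCs (solid lines) to LC-HFSCs (dashed lines). At kept genes the LC-HFSC H3K27me3 line reaches 71.5% at 1 kb and H3K4me3 drops from 56.6% to 25.5% at the start, while at lost genes the LC-HFSC H3K27me3 line is at 0 within the window by definition.

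The kept genes also had H3K27me3 in the other population and lost H3K4me3 more often. Of the 745, 721 (96.8%, 95.3 to 97.8) kept H3K27me3 in non-HFSCs as well, against 1275 of the 2173 lost genes (58.7%, 56.6 to 60.7). Of the lost genes, 469 (21.6%) had no H3K27me3 peak in non-HFSCs at either age. H3K4me3 was present in EA-HFSCs at 493 kept genes (66.2%) and at 1273 lost genes (58.6%), and these can be called bivalent in the lists. It was still present in LC-HFSCs at 221 of the 493 (44.8%, 40.5 to 49.2), at 753 of the 1273 (59.2%, 56.4 to 61.8) and at 11048 of 11734 genes with no H3K27me3 peak in HFSCs (94.2%, 93.7 to 94.6). The 3 intervals were separate. Non-HFSCs went the same way at these genes. From non-EA-HFSCs to non-LC-HFSCs, the share with an H3K4me3 peak fell from 55.8% to 39.1% at kept genes and from 54.8% to 44.4% at lost genes. At genes with no H3K27me3 peak in HFSCs it was 60.3% and 58.7%. Only 1 lost gene and none of the kept genes had an H3K4me3 peak in LC-HFSCs without one in EA-HFSCs. EA-HFSC H3K9me3 peaks were also frequent on the same genes, at 91.8% of kept, 62.1% of lost and 41.6% of genes with no H3K27me3 peak in HFSCs. LC-HFSC H3K9me3 peaks lay at 4 kept and 9 lost genes. Non-HFSCs differed in this mark. Non-EA-HFSC H3K9me3 peaks lay at 7.11% of kept, 4.79% of lost and 2.40% of the other genes. In non-LC-HFSCs the shares were higher, at 27.5%, 13.2% and 10.9%. How much of the overlap of marks came from shared background at these regions was not tested.

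Members of several transcription factor families were kept at a higher rate than the 25.5% of all genes with an EA-HFSC peak. The 6 families together gave 117 of the 745 kept genes, from 215 with an EA-HFSC peak (54.4%, 47.7 to 60.9). The families are lists of symbols chosen with earlier results of these data known, some of their members share a domain, and many lie under wide domains, the classes kept most. Of 108 homeobox and Pax regulators outside the Hox clusters with an EA-HFSC peak, 63 kept it (58.3%, 48.9 to 67.2), as did 15 of 24 forkhead genes (62.5%, 42.7 to 78.8), 19 of 31 basic helix-loop-helix factors (61.3%, 43.8 to 76.3) and 10 of 17 T-box and Gata genes (58.8%, 36.0 to 78.4). Hox genes kept it in 8 of 24 cases (33.3%, 18 to 53.3) and Sox genes in 2 of 11 (18.2%, 5.14 to 47.7). In non-HFSCs 109 of 111 homeobox and Pax genes kept the mark (98.2%). Against all genes with domains of the same width, the homeobox and Pax genes stood at 15 of 21 for 5 to 10 kb (71.4%, 50.0 to 86.2, against 48.1% of all genes), at 18 of 20 for 10 to 20 kb (90.0%, 69.9 to 97.2, against 64.0%) and at 30 of 62 for 20 kb and over (48.4%, 36.4 to 60.6, against 49.4%). In the widest class they were kept no more often than other genes.

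**Figure D5:**
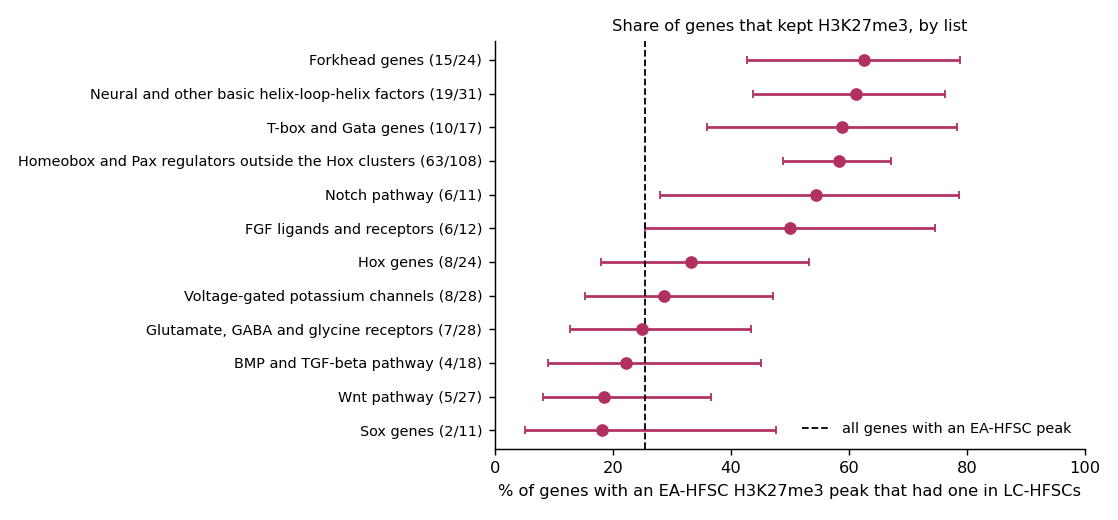
Percent of genes with an EA-HFSC H3K27me3 peak that had an LC-HFSC peak within 3000 bp of the start, for the 12 lists with at least 10 such genes, with 95% Wilson intervals as bars and the 25.5% of all genes as a dashed line. The intervals of forkhead, helix-loop-helix, T-box and Gata, homeobox and Pax, and Notch genes lie above the line.

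Some kept regulators held nearly the whole domain. Lhx1, a homeobox gene of kidney and head organizer, had a domain of 22474 bp with a score of 3100.0, and an LC-HFSC peak of 21627 bp with a score of 102.0 lay on 96.2% of it. Aatf, a transcription cofactor, shares that domain and differs from Lhx1 in keeping its H3K4me3 peak in LC-HFSCs. Sp5, a zinc finger target of Wnt signals, had 10937 bp with 97.0% covered. Pitx1, the hindlimb homeobox gene, had 30234 bp with 97.3% covered in 3 pieces, and Nkx1-1 had 12178 bp with 95.7% covered in 2.

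The highest LC-HFSC scores lay at other genes, led by 3 that act in neural development. Rfx4 had an EA-HFSC score of 1358.6 and an LC-HFSC score of 567.6, with 87.6% of its domain covered. Robo3, the guidance receptor of commissural axons, had 1520.8 and 523.1 with 80.0% covered. Tbr1, the T-box factor of the cortex, had 831.6 and 433.2 with 89.7% covered in 4 pieces. Tmem132e, Cbln1, Alx1 and Ebf3 followed with LC-HFSC scores of 387.5, 379.6, 339.2 and 333.9. These scores were all under those of EA-HFSCs, and scores of different lists depend on depth, so no change in enrichment is read from them.

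Other regulators with high EA-HFSC scores had no LC-HFSC peak at the start. Evx1, the homeobox gene beside the Hoxa cluster, had a domain of 22503 bp with a score of 3100.0 and 0 covered, and its nearest LC-HFSC peak was 8637 bp from the start. Foxd4, a forkhead gene, had 11211 bp with a score of 3100.0 and 0 covered, and Tlx3, a homeobox gene of sensory neurons, had 21190 bp with 9.53% covered away from the start. Pdgfra, the growth factor receptor of mesenchymal cells, had 14333 bp with a score of 3100.0 and 0 covered, the nearest LC-HFSC peak being 822200 bp away. Nr5a2, a nuclear receptor of liver and pancreas, counts as lost although 87.4% of its domain was covered, because the LC-HFSC peak ended 3831 bp from the start. Genes at the shared score of 3100.0 were taken in alphabetical order. All of these except Pdgfra are developmental transcription factors, and all 5 kept the mark in non-HFSCs.

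Forkhead and helix-loop-helix genes were found on both sides. Foxl2, the ovary factor, kept 79.1% of 33434 bp in 3 pieces and Foxb2 kept 85.9% of 16769 bp, whereas Foxc2, a factor of mesenchyme and vessels, had 21117 bp with a score of 2669.6 and 0 covered. Atoh1, the factor of hair cells and Merkel cells, kept 83.1% of 11224 bp, and Neurog2 kept 32.5% of 26913 bp. Neurog1, its close relative, had 21042 bp with a score of 2015.5 and 0 covered, and Neurod1 had 9026 bp with 2553.6 and 0 covered. Close relatives with domains of like width and score thus stood on either side of the call.

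The same held for T-box, Gata and Sox genes. Tbx20, a heart factor, kept 71.9% of 19288 bp, Tbx2 kept 85.4% of 17854 bp, and Gata3, a factor of the inner root sheath, kept 62.2% of 12207 bp. Tbx4, the neighbour of Tbx2 on chromosome 11, had 18454 bp with a score of 3100.0 and 0 covered, and Gata2 had 23952 bp with 0 covered. Of the Sox genes, Sox17 kept 80.2% of 17373 bp and Sox18, which acts in vessels as Sox17 does, kept 60.1% of 7824 bp. Sox14, Sox11, Sox3, Sox6, Sox10 and Sox8 lost the peak at the start.

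Signalling pathways differed among themselves in the share kept. Of 27 Wnt pathway genes with an EA-HFSC peak 5 kept it (18.5%, 8.18 to 36.7) and 1 further gene, Wnt1, gained it, and of 18 BMP and TGF-beta genes 4 kept it (22.2%, 9.00 to 45.2). Both shares were near the 25.5% of all genes. FGF genes stood at 6 of 12 (50.0%, 25.4 to 74.6) and Notch pathway genes at 6 of 11 (54.5%, 28.0 to 78.7). The 3 Hedgehog pathway genes with a peak, Shh, Ihh and Hhip, all kept it (100%, 43.9 to 100). The LC-HFSC scores of Ihh and Hhip were low, at 41.9 and 56.0. At a score of at least 100 neither would count as kept, and Ihh would not at 50 either. Shh, the ligand that drives anagen growth, kept 76.3% of a domain of 14569 bp under an LC-HFSC peak with a score of 242.6.

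The 5 Wnt pathway genes that kept the mark were Dkk1, Sfrp5, Sfrp2, Frzb and Wif1, all of which code for secreted antagonists of Wnt. The LC-HFSC peak covered 41.1% of the Dkk1 domain of 10461 bp, 63.1% at Sfrp5, 71.7% at Sfrp2 and 88.3% at Frzb, while at Wif1 it met only 0.310% of the EA-HFSC peak at its edge. Split by role after these values were seen, 5 of the 8 antagonist genes with an EA-HFSC peak kept it, and 0 of 11 genes of Wnt ligands and 0 of 4 R-spondin genes did. Among the lost ones, Lef1, the nuclear partner of beta-catenin, had 7242 bp with a score of 1546.7, Wnt3 had 7498 bp with 795.5 and Rspo1 had 11288 bp with 1283.6, each with 0 covered. The antagonists had an EA-HFSC H3K4me3 peak at Frzb, Sfrp2 and Wif1 and none at Dkk1 and Sfrp5. The LC-HFSC scores were low, at 79.9 for Dkk1, 71.3 for Sfrp5, 63.3 for Sfrp2, 83.5 for Frzb and 64.1 for Wif1. At a score of at least 100 none of these 5 would count as kept, whereas the gained ligand gene Wnt1 had 131.0. These are counts of a few genes, and no test of the split was made.

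Of the BMP and TGF-beta genes, the growth factors Gdf6 (93.7% of 15387 bp), Gdf7 (37.7% of 13899 bp) and Bmp8b (24.9% of 7712 bp) and the BMP antagonist Chrdl2 (32% of 7580 bp) kept the mark. The LC-HFSC peaks in their windows had low scores of 41.1, 45.7, 62.5 and 63.3. Gdf6 and Gdf7 would thus not count as kept at a score of at least 50. Bmp4, a signal of the dermal papilla, had 5322 bp with a score of 699.0 and 0 covered, and it lost the mark in non-HFSCs too. Bmp6, a signal of bulge quiescence, had 2193 bp with a score of 100 and 0 covered, with H3K4me3 at both ages. Of the FGF genes, Fgf5, the signal that ends anagen, kept 20.4% of 11046 bp, and Fgf7, a dermal papilla signal, had only 1148 bp with a score of 46.1 and lost it. Of the Notch genes, Dll4, a ligand, kept 90.3% of 7634 bp and Hey2, a target, kept 55.7% of 10665 bp.

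The cell cycle inhibitors of the Cdkn2 locus kept H3K27me3. Cdkn2a lay under a domain of 28607 bp with a score of 1775.7, of which LC-HFSC peaks covered 53.1%, the peak over the start having a score of 199.1. Cdkn2b beside it had 14291 bp with 2371.9, of which 74.1% was covered, with an LC-HFSC score of 50.5. Both genes had H3K4me3 at either age. Cdkn1c, the inhibitor p57, had 2275 bp with a score of 53.0 and lost it, and Trp73, a relative of p53, had 5171 bp with 607.1 and lost it. The other 19 of the 23 genes of this list had no peak in either list.

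Genes of the skin itself were few. Prom1, a stem cell surface marker, kept 96.9% of 4442 bp and had H3K4me3 at both ages. Krt8, a keratin of simple epithelia, kept 100% of 3266 bp, and its partner Krt18 had 7692 bp with a score of 394.0 and lost it. The hair keratins Krt83 and Krt86 lost peaks of 3316 and 1899 bp. Of the Polycomb genes, Phc1 counted as kept through another peak in the window, with 0 of the EA-HFSC peak covered, and Pcgf1 and Bmi1 lost it, each of them with H3K4me3 at both ages.

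Markers of other skin cells had H3K27me3 in the bulge cells too. The 4 melanocyte markers with an EA-HFSC peak, Kit, Mc1r, Sox10 and Ednrb, lost it, as did the 3 leukocyte markers with one, Cd207, Cd3e and Cd3g. Since 74.5% of all genes with an EA-HFSC peak lost it, so few losses do not set these markers apart. Of 6 fibroblast markers 4 kept it, with Vim at 67.6% of 3274 bp and Prrx1 at 55.4% of 11107 bp. Of 3 endothelial markers 2 kept it, the vascular receptors Flt1 (65.3% of 17504 bp) and Kdr (58.0% of 7126 bp), and the cadherin gene Cdh5 lost a peak of 1072 bp. Neuronal genes stood near the level of all genes, with 7 of 28 neurotransmitter receptors (25.0%, 12.7 to 43.4) and 8 of 28 voltage-gated potassium channels (28.6%, 15.3 to 47.1) kept.

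The 13 gained genes had mostly low-scoring LC-HFSC peaks. All 13 had an H3K27me3 peak in non-EA-HFSCs, and 11 kept it in non-LC-HFSCs. The LC-HFSC score was highest at 1700067P10Rik (230.7), Fezf1 (138.7), a forebrain zinc finger gene, and Wnt1 (131.0), a ligand of the early brain, and it was 42.1 to 68.4 at the other 10. At 1700067P10Rik an EA-HFSC peak lay just outside the window, 3441 bp from the start. The start itself lay under the LC-HFSC peak at Wnt1, Ddn and Egflam. At Wnt1 the LC-HFSC peak of 6639 bp lay at chr15:98618100-98624738 and the nearest EA-HFSC peak was 12001 bp from the start. At Dmrt3, a gene of spinal interneurons, an LC-HFSC peak of 15260 bp with a score of 68.4 ended 9 bp from the start.

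Of all 1909 LC-HFSC peaks, 91 met no EA-HFSC peak. Their median width was 2374 bp and their median score 49.6, with 84 under 100 and the highest at 280.1. Of these 91, 41 lay within 3000 bp and 23 within 1000 bp of an EA-HFSC peak, 67 met a non-EA-HFSC peak, and 15 met neither non-HFSC list. Little H3K27me3 was therefore found in LC-HFSCs outside the EA-HFSC domains and their near surroundings.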

How the data were processed

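H3K27me3 ChIP-seq was done on MNase-digested, briefly fixed chromatin of sorted cells. The authors trimmed single-end reads with Trimmomatic 0.22, aligned them to mm9 with Bowtie2, removed alignments of low quality, pooled the reads of independent experiments and used MACS 1.4 for peak calling, with the matching IgG library as control. Per the file values, the deposited score of each peak is 10 times the negative log10 of its p-value, with a lowest value of 40.0 for H3K27me3, a p-value of 0.0001. Scores depend on depth, which the lists do not give, and were compared within a list only.

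Overlaps (at least 1 bp) and gene calls were computed with Python 3.11.15, numpy 2.4.6, scipy 1.17.1 and pysam 0.24.0. Overlaps and covered lengths were checked on 20000 simulated peaks, where all 4 settings gave back the known answer. Gene calls were not part of that simulation. Starts were those of 22367 protein-coding genes of GENCODE vM1 on NCBIM37, the assembly of mm9, and positions are 1-based. A gene was kept, lost or gained by whether any peak of either list lay within 3000 bp. Where several did, the one of highest score was described. The 18 EA-HFSC and 4 LC-HFSC peaks on unplaced sequence took part in overlaps only. Samples were grouped by their titles, and 4 IgG samples had no list. The members and the 21 gene lists were chosen with earlier results of these data known. Of the listed symbols, 8 had no match and were left out.

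The text names the 12 kept genes with the largest covered share of a domain of 10 kb and over, the 12 with the highest LC-HFSC score, the 12 lost genes with the widest and the 12 with the highest-scoring EA-HFSC peak, all gained genes, and from each list up to 6 kept and 6 lost genes by EA-HFSC score, and leaves some of these out. Some items that the rule gives are not reported here. It also names the 5 widest EA-HFSC domains, the 5 in most pieces, the 5 LC-HFSC peaks that join the most and, added later, the 3 widest LC-HFSC peaks. Alternatives were score minimums of 50 and 100, merging of peaks less than 1000 or 3000 bp apart, equal numbers of top-scoring peaks, the 19 autosomes, a 50% overlap, windows of 1000 and 5000 bp, and any transcript start.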

Additional observations from a re-analysis of the deposited data

Results flagged for a closer look

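Some genes went opposite ways in HFSCs and non-HFSCs from early anagen to late catagen. This difference was not tested, since each side is 1 list. In all, 76 genes lost an H3K27me3 peak in HFSCs and gained one in non-HFSCs, and 2 did the reverse. Among the named genes, the first kind were Hoxd10, Hoxd9 and Gm14396, which share the EA-HFSC domain with a score of 384.1, Foxd2 with an EA-HFSC score of 1104.0, and Krt18 with 394.0. The second kind were 1700067P10Rik with an LC-HFSC score of 230.7 and D630029K05Rik with 42.5. At 1700067P10Rik the call rests on the window, since the LC-HFSC peak lay 2682 bp and the nearest EA-HFSC peak 3441 bp from the start.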

How the results depend on the processing

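There is 1 pooled list per population and no read totals in the lists, so replicate spread and depth could not be set against any value, and a result was not detectable where it lies under the threshold of the caller. No paired analysis was possible because each population has 1 pooled list and no result comes from a test. Of 80 recomputed values that answer a comparison, 42 moved little (within the interval of the reported share, or within 1.5 times a reported count) and 38 moved more. The cause was not tested.

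The share of EA-HFSC peaks overlapped was 6.65% as reported, 4.66% at a score of at least 100, 7.33% and 8.66% with peaks less than 1000 and 3000 bp apart merged, 50.1% with equal numbers of top-scoring peaks and 4.11% at an overlap of 50%. The covered length was 11.9% as reported, 11.1% and 6.90% at scores of at least 50 and 100, 10.8% with merging at 3000 bp and 31.1% with equal numbers. In domains of 10 kb and over it was 33.4% as reported, 17.3% at a score of at least 100, and 23.8% and 16.9% with merging. In peaks under 2 kb it was 0.922% as reported, 0.611% and 0.141% at the score minimums, 0.557% and 0.525% with merging, and 0 with equal numbers, where only 2 such peaks are left. The wider class was covered more in each. Split domains numbered 231 as reported, 138 and 29 at the score minimums, and 148 and 123 with merging. Joining peaks numbered 168 as reported, 109 and 22 at the score minimums, 8 and 2 with merging, and 18 with equal numbers.

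Kept genes numbered 745 as reported and 238 at a score of at least 100, lost genes 2173 and, with equal numbers, 493, and gained genes 13 as reported, 8 and 5 at the score minimums and 201 with equal numbers. Of the 99 named kept genes 46, and of the 103 named lost genes 62, had the same call in every setting that included them. The share of kept genes with EA-HFSC H3K4me3 that retained it was 44.8% as reported, 35.3% at a score of at least 100 and 49.8% with any transcript start. The overlapped share in non-HFSCs was 45.5% as reported, and, with settings added after seeing the data, 50.1% at a score of at least 100, 46.7% and 49.1% with merging, 50.0% with equal numbers and 66.1% with 1909 peaks from each list.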
